A study of Homo sapiens with 15 samples.

Results

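LGR5, ASCL2, MYC, CD44, AXIN2, SOX9, EPHB2, EPHB3, RNF43 and PROM1 are genes that Wnt signalling switches on in the intestine or that mark the stem and progenitor cells at the base of its crypts. These 10 genes were taken as a named list. Its rule uses no measured value, but it was drawn up with earlier results of these arrays known. Of the 10, 9 were among the 19775 genes with a probe set on the array, and EPHB2 was not analysed here. Each gene was represented by the probe set that was brightest on average over the 15 arrays, and its other probe sets served as a check. Once dim genes had been removed, 8 members were among the 8737 genes tested, and PROM1, whose highest log2 value with any fluid was 5.13, was not.

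The cells were Caco-2, a line from a human colon carcinoma, taken before they had differentiated and kept in serum-free DMEM for 24 h with 1 of 15 treatments, each read on a single Affymetrix array. For 12 arrays the medium held 10% by volume of cell-free fluid from a simulator of the colon, in which bacteria had fermented polydextrose, a poorly digested glucose polymer, at 0%, 1% or 2% for 48 h. The simulator passes its contents through 4 vessels in turn, of which vessel 1 models the ascending colon, vessel 2 the transverse, vessel 3 the descending and vessel 4 the sigmoid colon and rectum, which gave every dose 1 array from each vessel and 4 in all. Single arrays were also made with 5 mM butyrate, a fermentation product of fibre known to block histone deacetylases, 100 mM NaCl, and medium alone. All the fluids of a dose came from 1 simulation, so dose and simulation cannot be told apart, and "2% fluid" below means the fluids of that simulation. No repeat cultures are listed, so the p-values measure only the spread among these arrays, whose number limits the precision. In a bulk RNA sample, fewer cells of a type and less RNA per cell cannot be told apart.

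In the Wnt pathway, a ligand bound to Frizzled and LRP receptors stops the destruction complex, which contains APC and axin, from breaking down beta-catenin. Beta-catenin then enters the nucleus and acts with TCF and LEF factors on target genes. In the crypt this signal keeps the stem cells dividing, and cells that leave it behind stop dividing and differentiate. Most colon carcinomas, the source of Caco-2 included, carry a damaged APC, so that beta-catenin acts without a ligand.

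Of 11 markers of intestinal epithelium, 7 lay at a log2 value of 5 or more on all 15 arrays. These were EPCAM, CDH1, CDH17, KRT8, KRT18, KRT19 and KRT20. VIL1, CDX2, LGALS4 and GPA33, which also mark the intestinal lining, lay under 5 on all 15 arrays, and VIL1 was at most 2.78. The 5 leukocyte and 5 endothelial markers with a probe set lay under 5 on every array. Signal was alike across arrays, with 42.27% to 44.1% of genes at 5 or more.

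Sequence upstream of the start was at hand for 4 of the 9 measured members, from RefSeq on GRCh38.p14. Of these, 3 are shown because the genes behave differently below: CD44 was lower at both higher doses, RNF43 was lower with butyrate, and EPHB3 passed no test. Each sequence is the 250 bases before the start, 5′ to 3′ on the gene's strand, at chr11:35138921-35139170 (+) for CD44, chr17:58417535-58417784 (-) for the outer start of RNF43 and chr3:184561535-184561784 (+) for EPHB3.
CD44: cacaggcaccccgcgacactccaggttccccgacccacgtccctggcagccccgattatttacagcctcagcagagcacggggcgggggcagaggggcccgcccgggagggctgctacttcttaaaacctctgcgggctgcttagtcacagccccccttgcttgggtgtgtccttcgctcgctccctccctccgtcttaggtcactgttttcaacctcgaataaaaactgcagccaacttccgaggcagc
RNF43: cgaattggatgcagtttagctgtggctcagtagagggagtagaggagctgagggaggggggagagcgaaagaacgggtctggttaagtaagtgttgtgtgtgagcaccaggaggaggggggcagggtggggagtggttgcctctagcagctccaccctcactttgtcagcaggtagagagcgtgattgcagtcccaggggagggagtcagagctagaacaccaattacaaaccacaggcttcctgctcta
EPHB3: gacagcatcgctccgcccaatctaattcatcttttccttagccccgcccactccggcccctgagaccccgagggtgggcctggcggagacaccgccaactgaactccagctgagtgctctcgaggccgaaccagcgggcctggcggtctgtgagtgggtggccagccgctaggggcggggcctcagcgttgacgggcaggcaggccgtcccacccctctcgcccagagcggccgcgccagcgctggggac
The letters of the core site that TCF and LEF factors bind were searched as CTTTGAA and CTTTGAT on both strands, where they read TTCAAAG and ATCAAAG. They were absent from these 3 windows. They occurred in 1 of the 8 upstream windows of the measured members, an inner start of PROM1, 179 bases before that start. This stretch lies at chr4:16076269-16076319 (-), with the motif in capitals.
PROM1: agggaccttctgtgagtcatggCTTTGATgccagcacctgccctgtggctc
Of 35116 upstream windows of the same length over all genes, 5.94% held the motif, and so did 3 of 29 windows of other Wnt target genes and 0 of 24 of other crypt stem cell genes. A match is only a match of letters. G and C made up 62.4% of the CD44 window and 70% of the EPHB3 window, against 56% of the RNF43 window.

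With the 2% fluids, LGR5, ASCL2, CD44 and MYC fell against the 0% fluids, by between 1.59-fold for MYC and 3.13-fold for LGR5. Thus 4 of the 8 members tested fell and 0 rose, while of all genes tested 11.2% fell, 9.65% rose and 20.8% changed either way. AXIN2, SOX9, RNF43 and EPHB3 did not pass. The test was limma with dose and vessel as factors, and adjusted p-values are Benjamini-Hochberg values over all 8737 genes, with a threshold of 0.05.

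LGR5, a receptor for R-spondins and the gene most used to mark crypt stem cells, had log2 values of 8.68, 7.02, 6.37 and 6.80 in vessels 1 to 4 of the 2% fluid. With the 0% fluid it had 9.55, 8.87, 8.58 and 8.45. Each 2% array was below the 0% array of its vessel, but the 2% array of vessel 1 lay among the 0% arrays. The limma difference was -1.65 (SE 0.21, adjusted p = 0.00208).

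ASCL2, a transcription factor that sustains crypt stem cells, had log2 values of 7.96, 6.23, 5.74 and 6.17 with the 2% fluid of vessels 1 to 4, against 8.17, 7.47, 7.64 and 7.48 with the 0% fluid. The vessel 1 pair was nearly level, at a log2 difference of -0.22, while the other pairs differed by -1.91 to -1.24. The limma difference was -1.17 (SE 0.23, adjusted p = 0.00997).

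MYC, a transcription factor that drives growth and division, had log2 values of 10.89, 9.92, 9.92 and 10.10 with the 2% fluid, against 11.07, 10.88, 10.73 and 10.84 with the 0% fluid. In vessels 2 to 4 the groups were apart, and in vessel 1 the arrays differed by -0.18. The limma difference was -0.67 (SE 0.12, adjusted p = 0.00658).

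CD44, a cell-surface receptor for hyaluronan found on crypt base cells, had log2 values of 9.71, 8.77, 8.59 and 8.89 with the 2% fluid, against 10.15, 9.52, 9.61 and 9.50 with the 0% fluid. On this brightest probe set it was lower in all 4 vessels, and again only the vessel 1 array of the 2% fluid reached the 0% arrays. Its other bright probe sets differed in the sign of the vessel 1 pair. The second-brightest had 8.43 with the 2% fluid and 8.28 with the 0% fluid, and a dimmer one had 7.51 and 7.68. The limma difference was -0.71 (SE 0.10, adjusted p = 0.00294).

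**Figure D1:**
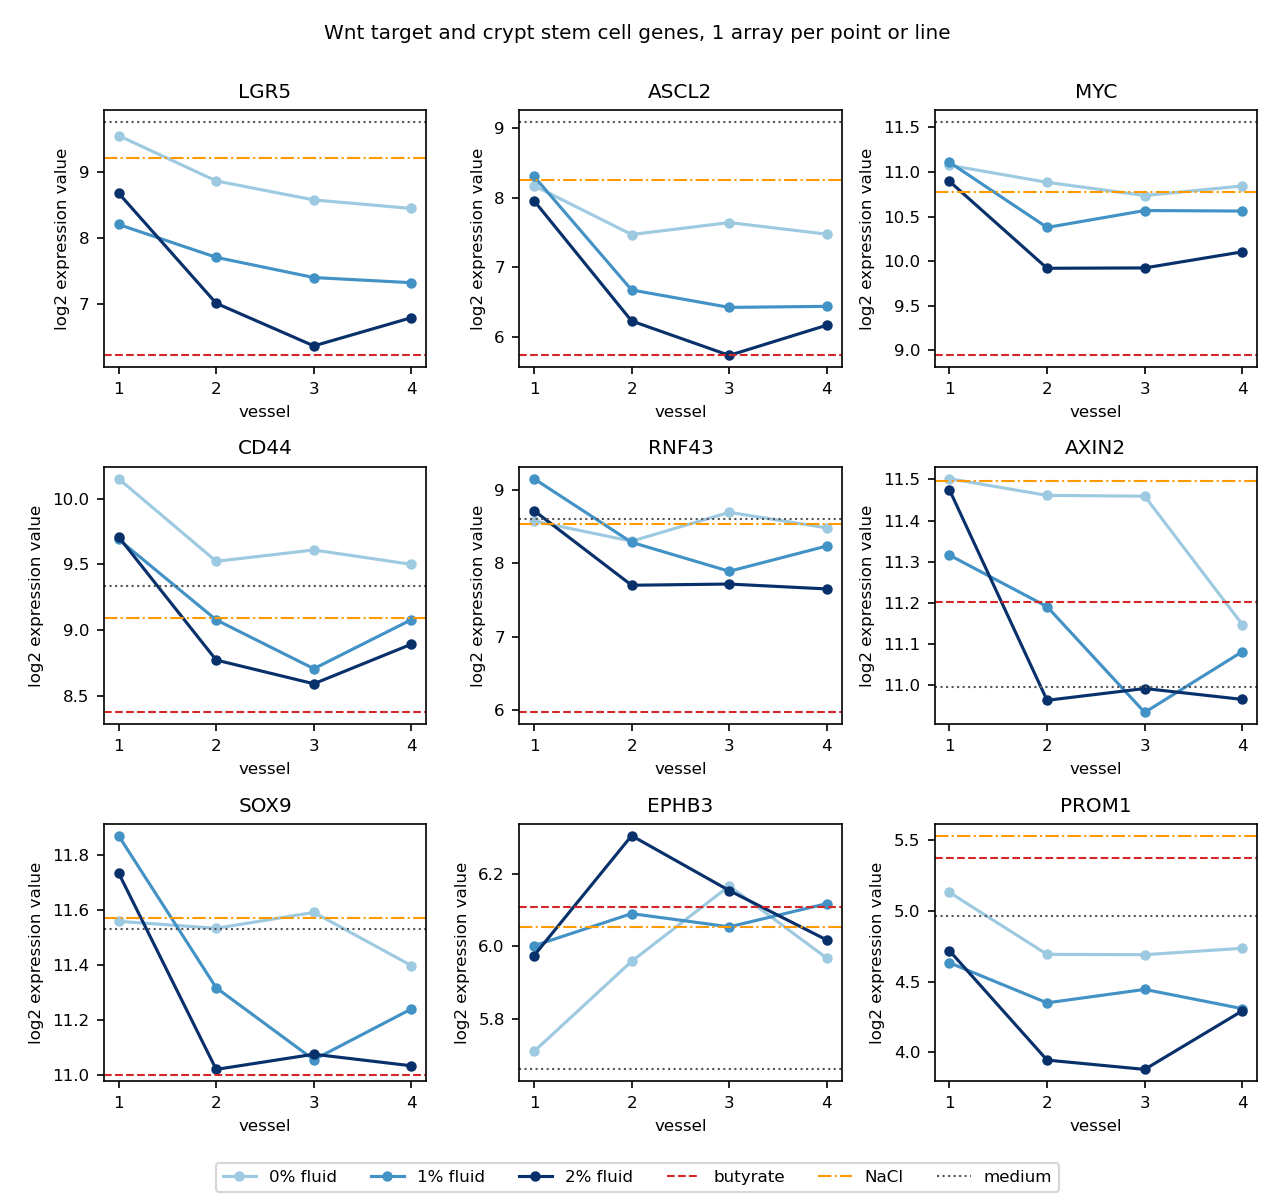
Log2 expression value (vertical axis, its own range in each panel) by vessel (horizontal axis) for the 9 measured members, with 1 line per dose and 1 array per point, and horizontal lines for the single butyrate, NaCl and medium arrays. For LGR5, ASCL2 and MYC the 2% points of vessels 2 to 4 lie below the 1% and 0% points, and vessel 1 is the highest point of each of their lines.

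RNF43, a membrane ubiquitin ligase that removes Frizzled receptors and so restrains the pathway, had log2 values of 8.72, 7.70, 7.72 and 7.65 with the 2% fluid, against 8.58, 8.30, 8.70 and 8.49 with the 0% fluid. Its sign differed between vessels, at 0.14 in vessel 1 and -0.98 to -0.60 in vessels 2 to 4, and its difference of -0.57 (SE 0.19, adjusted p = 0.0637) did not pass in limma. AXIN2, a scaffold of the destruction complex and a standard readout of the pathway, had 11.47, 10.96, 10.99 and 10.96 with the 2% fluid, against 11.50, 11.46, 11.46 and 11.15 with the 0% fluid. Its limma difference was -0.29 (SE 0.10, adjusted p = 0.0623). SOX9, a transcription factor of crypt progenitors, had 11.73, 11.02, 11.08 and 11.03 with the 2% fluid and 11.56, 11.53, 11.59 and 11.40 with the 0% fluid. Its limma difference was -0.30 (SE 0.13, adjusted p = 0.121), and as for RNF43 the vessel 1 pair had the other sign, at 0.18.

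EPHB3, a receptor that helps hold cells at their place along the crypt, had values within 5.71 to 6.30 on all 12 fluid arrays. Its limma difference was 0.16 (SE 0.09, adjusted p = 0.203), and it was the only member tested with a positive sign. PROM1, a membrane glycoprotein used as a stem cell marker, lay under 5 on 11 of the 12 fluid arrays, at 3.88 to 4.72 with the 2% fluid and 4.69 to 5.13 with the 0% fluid, so no difference is given for it.

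With vessel 1 left out, 7 of the 8 members fell with the 2% fluid, all but EPHB3, while 20.1% of all genes tested fell. The limma differences were then -1.91 for LGR5, -1.49 for ASCL2, -0.84 for MYC, -0.80 for RNF43, -0.79 for CD44, -0.46 for SOX9 and -0.38 for AXIN2, with adjusted p-values of 0.000153 for LGR5 to 0.0212 for AXIN2. In vessels 2 to 4 all 3 arrays of the 2% fluid lay below all 3 of the 0% fluid for 7 of the 8 members, a pattern that 27.7% of all genes tested showed. Over all 4 vessels no member of the 8 had such a gap, and 2.6% of genes did. Without the 0% array of vessel 1 alone, 7 members passed, while 1710 of the 8737 genes tested fell and 1348 rose. Without vessel as a block 0 of the 8 members passed in limma, with adjusted p-values of 0.214 to 0.331, and 0 of all genes did, although 1952 had an unadjusted p under 0.05.

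With the 1% fluids, LGR5 and CD44 fell against the 0% fluids, by 2.30-fold and 1.47-fold, and the other 6 members did not pass. Of all genes tested, 2.15% fell and 4.78% changed either way. LGR5 had log2 values of 8.21, 7.71, 7.41 and 7.33 in vessels 1 to 4 of the 1% fluid. All of these lay below the lowest 0% value of 8.45, which made it the only one of the 8 members tested with such a gap over all 4 vessels, against 3.69% of genes. PROM1, too dim to test, had such a gap as well. The limma difference of LGR5 was -1.20 (SE 0.21, adjusted p = 0.0236).

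CD44 had 9.69, 9.08, 8.71 and 9.08 with the 1% fluid, so that its vessel 1 array lay above 3 of the 0% arrays. Its limma difference was -0.56 (SE 0.10, adjusted p = 0.0256), while its other 6 fitted probe sets gave -0.32 to -0.05 and 0 of them passed. In vessels 2 to 4 the 1% arrays lay below all the 0% arrays for 6 of the 8 members, a pattern of 18.9% of genes. ASCL2 had 8.31, 6.68, 6.42 and 6.44 with the 1% fluid. Its vessel 1 array was above that of the 0% fluid and its other arrays were below, and the difference of -0.73 did not pass in limma (SE 0.23, adjusted p = 0.0926). Among the rest, MYC differed by -0.23, with 11.11, 10.38, 10.57 and 10.56 at 1%, and RNF43 by -0.12, with 9.16, 8.29, 7.89 and 8.24. AXIN2 differed by -0.26, SOX9 by -0.15 and EPHB3 by 0.11, and the limma adjusted p-values of these 5 were 0.14 to 0.724.

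The calls at 1% depended on single arrays. Both were lost in limma without the 0% array of vessel 2, 3 or 4 and without the 1% array of vessel 1, 3 or 4, with adjusted p-values of at most 0.0891 for CD44 and 0.101 for LGR5. Without the 1% array of vessel 2 only CD44 passed, while 59 of the 8737 genes tested fell. Without the 0% array of vessel 1 the count was 5, namely ASCL2, CD44, LGR5, MYC and SOX9, while 609 of the 8737 genes fell. Without vessel 1 altogether the count was 4, with ASCL2 at -1.02, CD44 at -0.59, LGR5 at -1.15 and MYC at -0.32, while 6.39% of genes fell. Without vessel as a block 0 members passed. The comparisons of 2% and of 1% share the 0% arrays.

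Between the 2% and 1% fluids 0 of the 8 members passed, and 0.0% of all genes did in limma, although 1608 genes and 2 members, MYC and RNF43, had an unadjusted p under 0.05. MYC had the smallest adjusted p of the members, at a log2 difference of -0.44 (SE 0.12, adjusted p = 0.15, 95% interval -0.71 to -0.18). RNF43 and LGR5 both differed by -0.45 and ASCL2 by -0.44, with an interval for LGR5 of -0.92 to 0.03. For AXIN2 the interval was -0.25 to 0.19. With vessel 1 left out, LGR5 (-0.75, adjusted p = 0.0316) and MYC (-0.52, adjusted p = 0.034) fell with the 2% fluid in limma, against 1.22% of genes. Without the 0% array of vessel 1 MYC fell, as did 377 of the 8737 genes tested. In vessels 2 to 4 the 2% arrays lay below all the 1% arrays for 4 of the 8 members, and 16.5% of genes showed this.

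**Figure D2:**
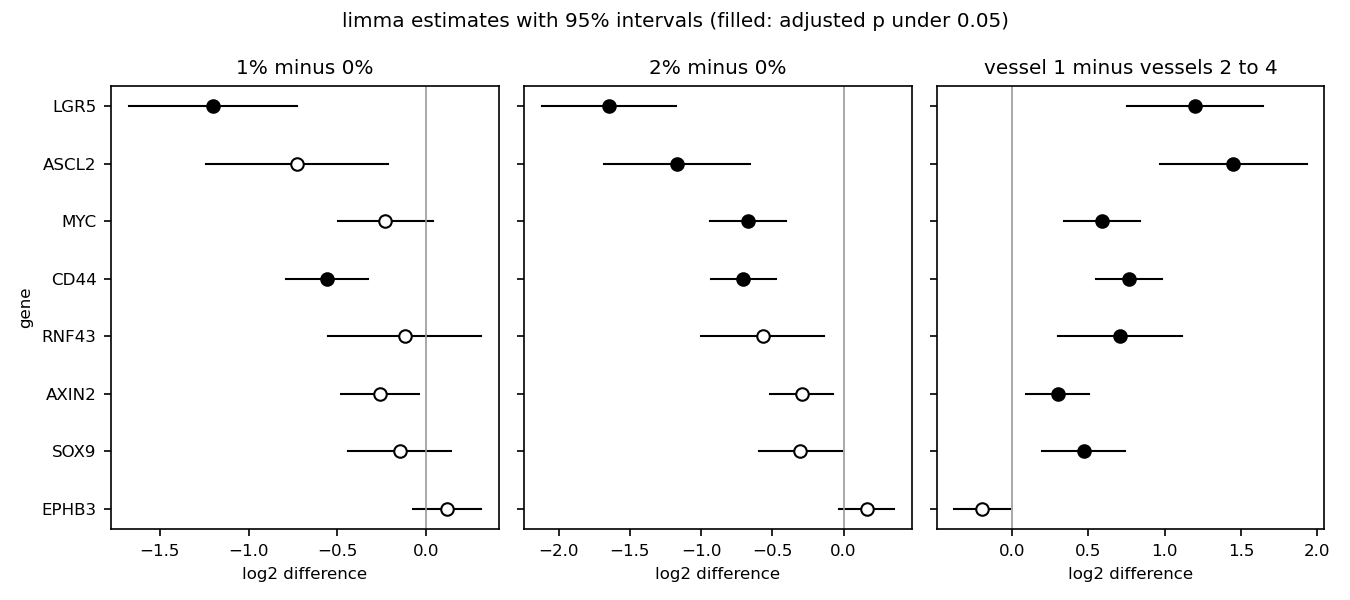
Log2 differences from limma (horizontal axis) for the 8 members tested, with bars for the 95% interval, from left to right for the 1% fluid minus the 0% fluid, the 2% fluid minus the 0% fluid, and vessel 1 minus vessels 2 to 4. Filled points have an adjusted p under 0.05, which holds for 2, 4 and 7 members, and EPHB3 is the only gene with the opposite sign.

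Across the vessels, 7 of the 8 members were higher in vessel 1 than in vessels 2 to 4, and EPHB3 was the exception. Of all genes tested 19.3% were higher in vessel 1 and 34.7% changed either way. ASCL2 stood 2.73-fold higher, at log2 values of 8.17, 8.31 and 7.96 with 0%, 1% and 2% in vessel 1, while its 9 arrays of the later vessels had 5.74 to 7.64. LGR5 was 2.30-fold higher, but its vessel 1 array at 1% (8.21) lay below the 0% arrays of all later vessels. The limma differences were 1.45 for ASCL2 (SE 0.21, adjusted p = 0.00177) and 1.20 for LGR5 (SE 0.20, adjusted p = 0.00275).

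CD44 differed by 0.77 (SE 0.10, adjusted p = 0.00103) in limma, while its other 6 probe sets gave 0.13 to 0.48 and 2 of them passed. RNF43 differed by 0.71 (SE 0.18, adjusted p = 0.0153) and MYC by 0.59 (SE 0.11, adjusted p = 0.00462) in limma. SOX9 differed by 0.47 (adjusted p = 0.0165) and AXIN2 by 0.30 (adjusted p = 0.0338). EPHB3 had -0.20 (adjusted p = 0.0855). For ASCL2, MYC and CD44, each on its brightest probe set, all 3 vessel 1 arrays were above all 9 later arrays, a pattern of 6.58% of genes. On the second-brightest CD44 probe set the 0% array of vessel 1 (8.28) lay under that of vessel 4 (8.32). The next one kept the gap, with a lowest vessel 1 value of 8.18 and a highest later value of 8.14. On the brightest probe sets vessel 1 was the highest of the 4 vessels at every dose for 5 of the 8, against 18.1% of genes. These were LGR5, ASCL2, MYC, CD44 and AXIN2.

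Without the vessel 1 array of the 1% fluid or that of the 2% fluid, the count was 4, namely ASCL2, CD44, LGR5 and MYC. Of the 8737 genes tested, 837 and 1004 were then higher in vessel 1. For AXIN2 the other fitted probe sets had the opposite sign, at -0.29 and -0.08. RNA integrity was read from ACTB, as the 3′ minus the 5′ log2 value of its controls, and this was largest in vessel 1 at each dose. Vessel 1 had 0.726 at 0%, 0.924 at 1% and 0.62 at 2%, and vessels 2 to 4 had 0.366 to 0.636. Its part in the vessel difference was not tested.

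Whether the dose acted differently in vessel 1 was tested as an interaction, the log2 change per percent of polydextrose in vessel 1 minus that in vessels 2 to 4. It was positive for all 8 members, that is, the change per percent was less negative or more positive in vessel 1. None of the 8 passed in limma, and 1.17% of genes did. ASCL2 had 0.64 (SE 0.16, adjusted p = 0.094), LGR5 0.52 (SE 0.18, adjusted p = 0.164), RNF43 0.47 (SE 0.16, adjusted p = 0.162), MYC 0.33 (SE 0.08, adjusted p = 0.0923) and SOX9 0.32 (SE 0.11, adjusted p = 0.155). These 5 had an unadjusted p under 0.05. ASCL2 and LGR5 passed without the 1% array of vessel 1, as did 375 of the 8737 genes tested. Without the 2% array of vessel 1 the sign of LGR5 turned, to -0.19.

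On the brightest probe sets butyrate gave the lowest value on any array of LGR5, MYC, RNF43, CD44 and SOX9. For SOX9 it was 11.00, against 11.02 with the 2% fluid of vessel 2. On the second SOX9 probe set butyrate (10.94) was not lowest, and the 1% fluid of vessel 3 had 10.70. LGR5 was 11.6-fold lower with butyrate than in medium, ASCL2 10.2-fold, RNF43 6.23-fold and MYC 6.14-fold. Each on its brightest probe set, these 4 of the 8 members compared were at least 2-fold lower and 0 were 2-fold higher. Of all genes compared, 15.6% were 2-fold lower and 31.2% were 2-fold apart. The single medium array had the largest ACTB 3′ minus 5′ log2 value of the 15 arrays, at 0.585 with butyrate and 0.641 with NaCl against 0.951 in medium, and its part in the differences from medium was not tested. Each of these treatments had 1 array, so the differences have no replicate check and no test was made. Genes were compared where the brighter array had a log2 value of 6 or more.

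LGR5 had a log2 value of 6.23 with butyrate and 9.77 in medium, a difference of -3.54. ASCL2 had 5.74 with butyrate and 9.09 in medium, a difference of -3.35. Both were at their highest of all 15 arrays in medium, as was MYC, which had 8.94 with butyrate and 11.56 in medium. RNF43 had 5.97 with butyrate and 8.61 in medium, a difference of -2.64, and no fluid array came near that butyrate value, since the lowest was 7.65.

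On their brightest probe sets the other members differed by less than 2-fold. CD44 had 8.37 with butyrate and 9.34 in medium, but its other 6 bright probe sets differed by -1.39 to -0.82. SOX9 had 11.00 with butyrate and 11.53 in medium. AXIN2 had 11.20 with butyrate and 11.00 in medium, so that this readout of the pathway was not lower with butyrate. EPHB3 had 6.11 with butyrate and 5.66 in medium, and PROM1 had 5.38 with butyrate and 4.97 in medium, too dim to compare. Of the fibroblast markers, which were not at 5 in medium, COL1A1 had 8.13 with butyrate and 1.37 in medium and VIM had 6.80 with butyrate and 3.38 in medium, while 5 of the 8, COL1A2, COL3A1, DCN, LUM and PDGFRA, were under 5 on all arrays. The mean log2 value of the 8 was 3.78 with butyrate and 2.39 in medium, and 3.22 to 3.38 with 0%, 3.14 to 3.45 with 1% and 3.25 to 3.61 with 2%. The part of these markers in the members' differences was not tested.

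With NaCl all 8 members, each on its brightest probe set, lay within 2-fold of medium, while 16.6% of genes were 2-fold apart. CD44 differed by -0.24 on that probe set, but by 1.06 to 1.49 on the other 6 that were bright enough. ASCL2 had 8.26 with NaCl and 9.09 in medium, MYC had 10.78 with NaCl and 11.56 in medium, and LGR5 had 9.22 with NaCl and 9.77 in medium. AXIN2 had 11.50 with NaCl and 11.00 in medium, and its other bright probe sets differed by 1.10 to 1.13. RNF43 was level, at 8.54 with NaCl and 8.61 in medium. Butyrate against NaCl gave the same 4 members at 2-fold or more, at -3.00 for LGR5, -2.57 for RNF43, -2.52 for ASCL2 and -1.84 for MYC, and 17.0% of genes were that much lower. CD44 differed by -0.72 between butyrate and NaCl on its brightest probe set, but by -2.74 to -2.07 on the other 6 that were bright enough. The comparisons with medium share its 1 array.

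**Figure D3:**
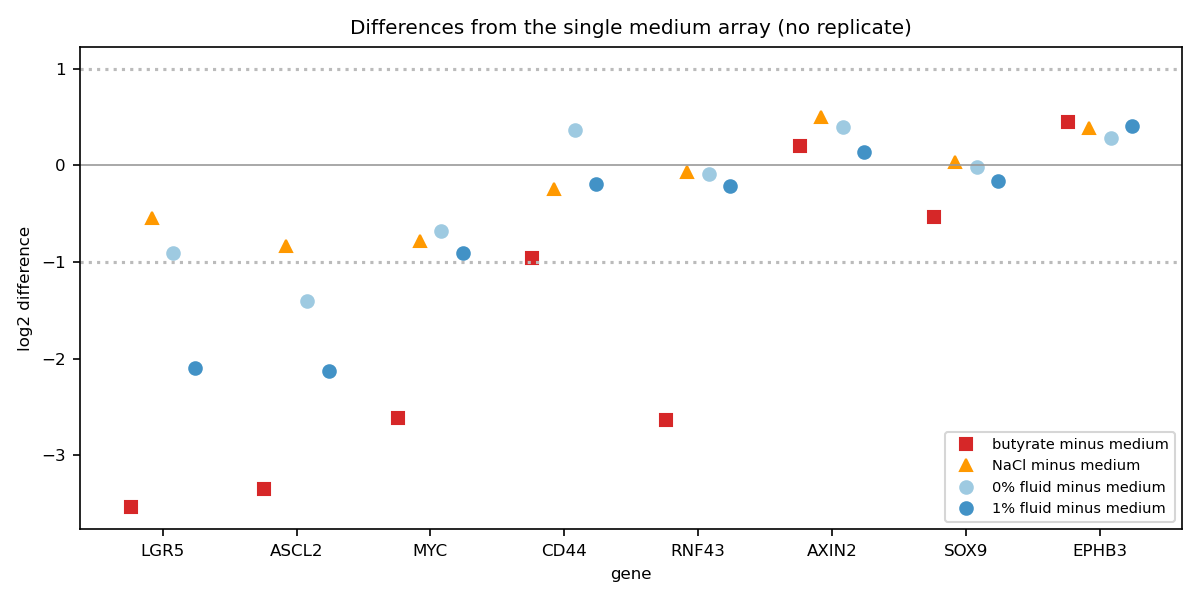
Log2 difference from the single medium array (vertical axis) for the 8 members tested, with squares for butyrate, triangles for NaCl and circles for the mean of the 4 fluid arrays at 0% and at 1%. Dotted lines mark a 2-fold difference. LGR5, ASCL2, MYC and RNF43 lie beyond the lower line with butyrate, and ASCL2 does with the 0% fluid too.

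The fluids without polydextrose already differed from medium. The mean of the 0% arrays was 7.69 ± 0.33 for ASCL2 (SD, n = 4) against 9.09 in medium, a difference of -1.40 and the only one of 7 members compared to reach 2-fold, while 4.8% of genes were 2-fold lower and 12.6% 2-fold apart. LGR5 had 8.86 ± 0.49 with the 0% fluid against 9.77 in medium, a difference of -0.90 that was -1.13 without vessel 1. MYC had 10.88 ± 0.14 with the 0% fluid against 11.56 in medium. CD44 and AXIN2 were higher with the 0% fluid than in medium, by 0.36 and 0.40 on their brightest probe sets. The other 6 bright probe sets of CD44 were higher by 0.52 to 0.92, and the other bright 1 of AXIN2 by 0.92. RNF43 and SOX9 differed by -0.09 and -0.01 on their brightest probe sets.

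With the 1% fluid, a comparison added after the data were seen, LGR5 differed from medium by -2.10 and ASCL2 by -2.13, and 8.88% of genes were 2-fold lower. Set against butyrate, the mean of the 2% fluid arrays was higher for RNF43 by 1.98 and for MYC by 1.27, and 3.12% of genes were 2-fold higher while 5.0% were 2-fold apart. LGR5 stood 0.99, ASCL2 0.78 and CD44 0.62 above butyrate, and the other 6 probe sets of CD44 stood 1.15 to 1.93 above it. In vessels 2 to 4 of the 2% fluid the log2 value had moved 77.7% to 95.9% of the way from medium to butyrate for LGR5. It had moved 85.5% to 100.2% for ASCL2, 55.7% to 62.7% for MYC and 33.6% to 36.2% for RNF43. With the 0% fluids of these vessels it had already moved 25.3% to 37.1% for LGR5 and 43.3% to 48.4% for ASCL2. For MYC this was 25.9% to 31.6% and for RNF43 -3.48% to 11.5%. With the 1% fluids of these vessels it had moved 58.0% to 68.9% for LGR5 and 72.2% to 79.6% for ASCL2. For MYC this was 38.0% to 45.3% and for RNF43 12.0% to 27.0%. In vessel 1 of the 2% fluid it had moved 30.5% for LGR5, 33.9% for ASCL2, 25.5% for MYC and -4.36% for RNF43.

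The order of the levels was clearest for LGR5. Medium (9.77) stood first, then the 0% fluid of vessel 1 (9.55) and NaCl (9.22). The 0% fluids of vessels 2 to 4 followed at 8.45 to 8.87, then the 1% fluids at 7.33 to 7.71, the 2% fluids at 6.37 to 7.02 and butyrate at 6.23. These 3 sets of fluids did not overlap. Of all genes tested, 18.9% had the 1% set below the 0% set and 16.5% had the 2% set below the 1% set. The share of genes with both gaps was not counted. The 2% fluid of vessel 1 (8.68) lay among the 0% fluids, the 1% fluid of vessel 1 (8.21) between the 0% and 1% sets, and butyrate lay under the lowest 2% array by less than the SD of the 2% arrays of vessels 2 to 4 (0.33). For ASCL2 and MYC the 3 sets were apart in the same way, but butyrate lay within the ASCL2 range of the 2% fluids and well under that of MYC.

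CD44 was the member with the most probe sets, 13 in all and 7 bright enough to test. The other 6 gave the same sign as the brightest in each comparison of doses, but only 2 of them passed for 2% against 0%, at limma differences of -0.58 to -0.38, and 0 for 1% against 0%. Against medium they agreed for butyrate, at -1.39 to -0.82 beside -0.96 for the brightest. With NaCl they did not: the brightest had -0.24 while the other 6 had 1.06 to 1.49.

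**Figure D4:**
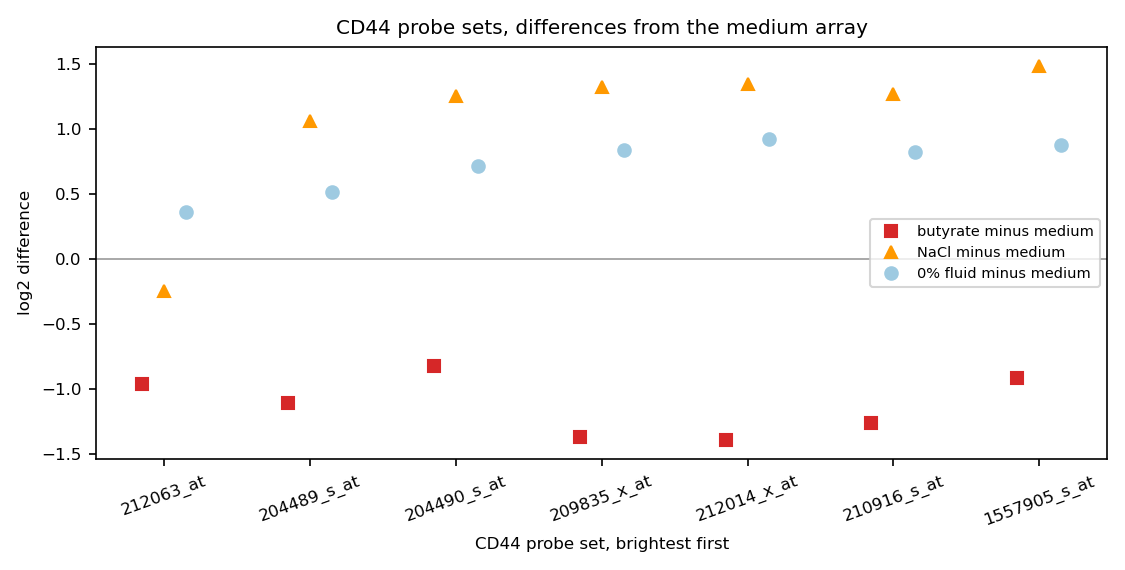
Log2 difference from the single medium array (vertical axis) for the 7 CD44 probe sets tested (horizontal axis, brightest first), with squares for butyrate, triangles for NaCl and circles for the mean of the 0% fluid arrays. All squares lie below 0 and all circles above 0, and with NaCl the brightest probe set lies below 0 while the other 6 lie above 1.

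For SOX9 the second probe set gave the same signs, at -0.17 for 2% against 0% and 0.51 for vessel 1 against vessels 2 to 4, and the second of these passed in limma (adjusted p = 0.016). LGR5, ASCL2 and EPHB3 each had a second probe set that was too dim to use, with means over the 15 arrays of 3.39, 1.26 and 4.50. MYC, RNF43 and PROM1 had 1 each.

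Across the 12 fluid arrays the values of LGR5, ASCL2, MYC, CD44, RNF43, SOX9 and AXIN2 followed each other. ASCL2 correlated with CD44 at r = 0.96 and with LGR5 at 0.91, and RNF43 with SOX9 at 0.96, whereas EPHB3 had -0.72 to -0.44 with these 7. These values describe 12 arrays that share doses and vessels. Over all 15 arrays and 8831 genes, those most like LGR5 were BUB1 (r = 0.981), ANLN (0.98), IFIT5 (0.976), CCNB1 (0.971) and PBK (0.971). Most like MYC were ACSL5 (0.978), AURKB (0.977), LIF (0.976), CXCL5 (0.972) and UBE2E1 (0.969). BUB1, ANLN, CCNB1, PBK and AURKB are genes of mitosis.

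Most proliferation markers moved the way most members did between the 2% and 0% fluids, between vessels and with butyrate. Of 12 such genes, 10 fell with the 2% fluid against the 0% fluid and 0 rose, while 11.2% of all genes tested fell. Their median log2 difference was -0.90, beside -0.62 for the 8 members and -0.01 for all genes tested. AURKA, a mitotic kinase, differed by -1.55 (SE 0.19, adjusted p = 0.00197 in limma), and CCNB1, the cyclin of mitosis, by -1.45 (SE 0.18, adjusted p = 0.00195). In vessel 1, 10 of the 12 were higher than in vessels 2 to 4, against 19.3% of all genes tested. With butyrate 11 of 12 were 2-fold lower than in medium, against 15.6% of genes compared. With NaCl 4 of the 12 were 2-fold lower than in medium, against 0 of the 8 members and 604 of 7874 genes compared. With the 0% fluid it was 5 of the 12, against 1 of 7 members and 4.8% of genes. Set against butyrate, 0 of the 12 were 2-fold higher with the 2% fluid, while 2 of the 8 members and 3.12% of genes were. The part of these genes in the members' differences was not tested.

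The other genes of the pathway were counted for 2% against 0% beside the 20.8% of all genes tested that passed, with no test of the difference. Of 15 genes of beta-catenin and its destruction complex tested, 0 passed, and CTNNB1, which encodes beta-catenin, had 12.65 ± 0.08 with the 2% fluid and 12.70 ± 0.04 with the 0% fluid (SD, n = 4 each; limma adjusted p = 0.629). Of 11 nuclear factors 1 fell, LEF1 (-0.40, adjusted p = 0.0224), which is also a Wnt target, while TCF7L2, the main TCF factor of the intestine, differed by -0.12 (adjusted p = 0.285). Of 3 tested inhibitors 0 passed, and ZNRF3, the close relative of RNF43, differed by -0.13 (adjusted p = 0.222).

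Among receptors, LRP5, a Wnt co-receptor, fell (-1.42, SE 0.30, adjusted p = 0.0129 in limma) and FZD5 (0.37) and LRP6 (0.23) rose, 3 of 11 tested. LRP5 was dim, at 3.48 to 6.05 with the 2% fluid and 5.35 to 6.05 with the 0% fluid. It was also the 1 receptor to pass the interaction with vessel, at 0.945 per percent (adjusted p = 0.0333 in limma). Of 24 ligands and R-spondins only WNT5A and WLS, which carries ligands out of the cell, were bright enough to test. WNT5A, a ligand known for signalling outside beta-catenin, fell by 0.99 (SE 0.14, adjusted p = 0.00319 in limma).

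Of 12 other Wnt target genes tested, 3 fell and 2 rose with the 2% fluid. This count and those of the lists that follow stand beside 11.2% of all genes that fell and 9.65% that rose, and with so few genes a list nothing is read from them about a list. LEF1, TCF4 (-0.70, adjusted p = 0.0147) and BMP4 (-0.41, adjusted p = 0.0321) fell, and JUN (0.85, adjusted p = 0.0122) and BAMBI (0.31, adjusted p = 0.0151), an inhibitor of BMP signalling, rose in limma. CCND1, a cyclin of early division, differed by -0.12 (adjusted p = 0.471). Of 10 other crypt stem cell genes tested 1 fell, CDCA7 (-0.66, SE 0.09, adjusted p = 0.00231), and 0 rose. OLFM4, a further marker of crypt stem cells, was too dim to test.

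Of 8 ephrins and Eph receptors tested, EPHA4 (0.68) and EPHA2 (0.37) rose and 0 fell, and EFNB2, a ligand of EPHB receptors, differed by -0.09. Of 14 partners and targets of MYC, 4 fell, among them SRM (-0.69), which makes spermidine, and CAD (-0.46), of pyrimidine synthesis, and 2 rose, MAX (0.35), the partner of MYC, and ODC1 (0.41). Of 5 absorptive genes 1 rose, KLF4 (0.24), and of 2 secretory genes 1 fell, TFF3 (-0.54, adjusted p = 0.0496).

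With butyrate, 3 of 11 other Wnt target genes were 2-fold lower than in medium and 1 was 2-fold higher. FOSL1 had 4.14 with butyrate and 8.0 in medium, which gives -3.00 as a bound against the limit of 5. TNFRSF19, in mice a marker of crypt stem cells, had 4.22 with butyrate and 7.44 in medium, a bound of -2.44, and ETS2 differed by -1.11. BAMBI was higher by 1.89. LGR4, the relative of LGR5 found more widely in the crypt, was higher by 1.09 with butyrate, at 7.56 against 6.47 in medium, while LGR5 was lower.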

How the data were processed

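Gene expression was read on 15 Affymetrix arrays, 1 per treatment, and samples were grouped by the labels. The authors deposited 1 table of log2 values for 54675 probe sets, made with GCRMA per the submitters' processing notes, with no version given. GCRMA corrects background, normalizes and summarizes probes. The log2 scale was inferred from the values (0.173 to 14.46), which were not normalized again. By the platform's annotation 41097 probe sets had 1 gene, 1801 had several and 11777 had none.

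Genes with log2 of at least 5 on at least 4 of 12 fluid arrays were tested. The model, in limma 3.58.1 under R 4.3.3, had dose and vessel as factors (6 residual degrees of freedom, 3.2 prior degrees, median residual SD 0.147), and p-values were two-sided. The number of the vessel pairs the arrays of different doses: with the dose means taken out, 12 same-vessel pairs correlated at a median of 0.376 (0.024 to 0.781), and 10 were above 0.1. The interaction used the dose in percent and an indicator for vessel 1. Single arrays were compared without a test, by a log2 difference of 1 or more. A side whose arrays were all under 5 was set to 5 and the difference given as a bound. Means are given ± SD, and intervals are 95% limits from the fit. The script was checked on simulated data.

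The members and the 16 other gene lists were chosen with earlier results of these data known, and so were the split of vessel 1 from the later vessels, the filters and the tests. Beside all members, the rule named up to 5 genes per list with the smallest p for 2% minus 0% or the largest butyrate difference, CCND1, LEF1, TCF7L2, CTNNB1, ZNRF3, EFNB1 and EFNB2 in any case, and the 5 genes most like LGR5 and most like MYC by correlation. EFNB1 was too dim to test. OLFM4, COL1A2, COL3A1, DCN, LUM, PDGFRA and the epithelial markers under 5 were named from the marker lists. Alternatives covered the filter, the probe sets, the scaling, the vessel block, the arrays entered and leaving out each array. The sources used here name no genome build for the array values, so the only coordinates given are those of the RefSeq sequences, on GRCh38.p14.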

Additional observations from a re-analysis of the deposited data

Results flagged for a closer look

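A value was singled out where the highest or lowest of the 4 arrays of a dose lay apart from the other 3 by Dixon's 95% limit. Of 27 groups examined, 7 had such an array. For independent replicates chance gives about 1 in 20. Here the 4 arrays of a dose are different vessels and the genes share the same arrays, so that rate is no measure for this count. Of the 7, 6 were at vessel 1 and higher than the other vessels. With the 2% fluid these were AXIN2 at 11.47, SOX9 at 11.73 and RNF43 at 8.72 in vessel 1. With the 1% fluid it was ASCL2 at 8.31 in vessel 1. With the 0% fluid these were CD44 at 10.15 and PROM1 at 5.13 in vessel 1, and AXIN2 at 11.15 in vessel 4, which was lower than the other 3.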

How the results depend on the processing

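For 2% against 0%, 4 members and 1820 genes passed. With the second-brightest probe sets, CD44 and MYC passed, 2 of 5 members (MYC and RNF43 keep their only one). Without vessel as a replicate block 0 members and 0 genes passed, without vessel 1 they were 7 and 3205, with only the 8 arrays compared 863 genes passed, and leaving out single arrays gave 4 to 7 members and 656 to 3058 genes. LGR5, ASCL2, CD44 and MYC passed without each of the 12 arrays in turn. For 1% against 0%, 2 members and 418 genes passed. The members were 1 with the mean of probe sets and 0 of 5 with the second-brightest, where LGR5 was left out and CD44 did not pass. Without the replicate block 0 members and 0 genes passed (1125 unadjusted), without vessel 1 they were 4 and 1136, with only 8 arrays 1 and 1, with no filter 258 genes, and without single arrays 0 to 5 and 0 to 1185. For 2% against 1%, 0 members and 0 genes passed (1608 unadjusted). They were 2 and 141 without vessel 1, with only 8 arrays 61 genes, and without single arrays 0 to 1 and 0 to 579. For the vessels the second-brightest probe sets gave 4 of 5 members and leaving out single arrays 4 to 7 members and 1656 to 3704 genes, against 7 and 3035. For the interaction single arrays left out gave 0 to 2 members and 0 to 375 genes, and the stricter filter 154 genes, against 0 and 102.

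With the mean of probe sets the genes 2-fold apart were 1643 instead of 2511 for butyrate against medium, 806 instead of 1307 for NaCl, 1747 instead of 2687 for butyrate against NaCl, 638 instead of 986 for the 0% fluid, 1013 instead of 1556 for the 1% fluid and 235 instead of 388 for the 2% fluid against butyrate. With the second-brightest probe sets, which leave out LGR5, ASCL2 and EPHB3 because theirs are dim, the members were 2 of 5 for NaCl (CD44 and AXIN2). They were 0 of 5 for the 0% fluid and 0 of 5 for the 1% fluid, where the members otherwise called, ASCL2 and for 1% also LGR5, were among those left out, and with the mean 1 for the 1% fluid. For the 0% fluid median centring and leaving out vessel 1 each gave 2, LGR5 and ASCL2.

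Signs turned for values that did not pass and for AXIN2 between vessels. RNF43 for 1% against 0% ranged from -0.36 to 0.060 without single arrays. For 2% against 1%, AXIN2 ranged from -0.11 to 0.035 and EPHB3 from -0.012 to 0.090 without single arrays. AXIN2 had 0.044 with the mean of probe sets and 0.0027 with median centring, and EPHB3 had -0.016 with the mean. AXIN2, which passed for the vessels at 0.30, had -0.024 with the mean and -0.078 with the second probe set. In the interaction EPHB3 ranged from -0.098 to 0.23 and LGR5 from -0.19 to 1.23 without single arrays. The cause was not tested.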

Other observations

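The values of CDCA7, a gene used as a marker of crypt progenitors, differed between the salt and butyrate arrays in another order than those of LGR5. CDCA7 had 6.43 with NaCl, 7.69 with butyrate and 9.27 in medium, while LGR5 had 9.22 with NaCl, 6.23 with butyrate and 9.77 in medium. Among other Wnt target genes PLAUR, a receptor for urokinase, had 7.03 with NaCl and 8.93 in medium, and BAMBI had 11.38 with NaCl and 8.97 in medium. Each of these is 1 array, with no test, and PLAUR was named after its values were seen.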
